A study of Bos indicus x Bos taurus with 17 samples.

Results

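Integrin and laminin chains were followed in bovine fetal skeletal muscle and liver. The members were all genes of the deposited count tables whose symbols name an integrin alpha chain, an integrin beta chain or a laminin alpha, beta or gamma chain. The rule reads symbols alone. This gave 37 of the 21048 listed genes: 18 integrin alpha chains, 8 integrin beta chains and 11 laminin chains. The laminin chain LAMB4 was on the list of symbols drawn up for these families and is not analysed here.

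The RNA came from F1 fetuses of a Nelore and a Holstein parent (Bos taurus indicus x Bos taurus taurus) at about day 105 of gestation. The comparison was between 2 methods of conception: artificial insemination (Control-AI, fetuses 2 and 4) and in vitro production by assisted reproductive technologies (ART-Normal, fetuses 1 to 4). The study describes the ART-Normal group as similar in weight to the controls, but gives no weight for ART-Normal 4. Each of the 6 fetuses gave 1 muscle and 1 liver library, so 12 libraries were used. The labels mark the ART fetuses as healthy. The kidney libraries in the labels are not analysed here. With 4 against 2 fetuses there are 15 ways to split the samples, and an exact two-sided permutation test of 1 gene could not go below 0.133, so tests of conception rest on a fit across all genes.

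Integrins are receptors in the cell membrane, each built of 1 alpha and 1 beta chain, that hold cells to the extracellular matrix or to other cells and pass signals through the membrane. Laminins are cross-shaped matrix proteins, each built of 1 alpha, 1 beta and 1 gamma chain, and form the sheet of the basement membrane around muscle fibres, vessels, nerves and epithelia. In muscle, the basement membrane is held to the fibre by laminin-binding integrins and by dystroglycan, and loss of LAMA2 or ITGA7 causes congenital muscle disease. The fetal liver is also a site of blood formation, and leukocytes and platelets carry integrins of their own.

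Counts assigned to genes totalled 12433300 to 43339598 per library. Levels are given in CPM, the count of a gene scaled to a fixed total per library, after normalisation by the trimmed mean of M values (TMM) over the 12 libraries; 3 counts corresponded to 0.0665 to 0.221 CPM, and a level that rests on few counts carries a large counting error. Markers of each tissue matched the labels: 10 skeletal muscle markers summed to 20890 to 31676 CPM in muscle and 8.03 to 43.8 CPM in liver, and 10 hepatocyte markers summed to 36967 to 358134 CPM in liver and 26.1 to 392 CPM in muscle. Control-AI 2 stood apart in several marker sums. Its liver library held 358134 CPM of hepatocyte markers against 36967 to 70133 in the other 5, and 25650 CPM of erythroid markers against 7226 to 8147. This library also held 43.8 CPM of skeletal muscle markers against 8.03 to 10.7 in the other 5 livers. The TMM factor of this library was 0.761 against 0.963 to 1.04 in the other livers. Its muscle library held 392 CPM of hepatocyte markers against 26.1 to 67.5 in the others. The study's methods take the RNA-seq of controls from earlier work of the same group, while the labels list Control-AI 2 and 4 here. The count columns were matched to the labels by fetal name, and whether the control columns hold the libraries listed here or earlier ones cannot be told from the sources used here. If they were made at another time than those of ART-Normal, conception and time of preparation cannot be told apart. Over the tested members, the median absolute log2 ratio of Control-AI 2 to the mean of the other 5 libraries was 0.192 in muscle and 0.283 in liver, while the same measure for each of the other libraries ran from 0.102 to 0.183 and from 0.100 to 0.213. Over all tested genes it was 0.208 for Control-AI 2 in muscle against 0.128 to 0.169 for the others, and 0.226 in liver, within the 0.122 to 0.239 of the others. Values without this fetus are therefore given where it carries a result.

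All 37 members together took 0.481% to 0.526% of the counts of a muscle library and 0.128% to 0.183% of those of a liver library. The lowest liver share, 0.128%, was that of Control-AI 2, and the other liver libraries lay between 0.169% and 0.183%. The plot of levels by library places each chain in its family.

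**Figure D1:**
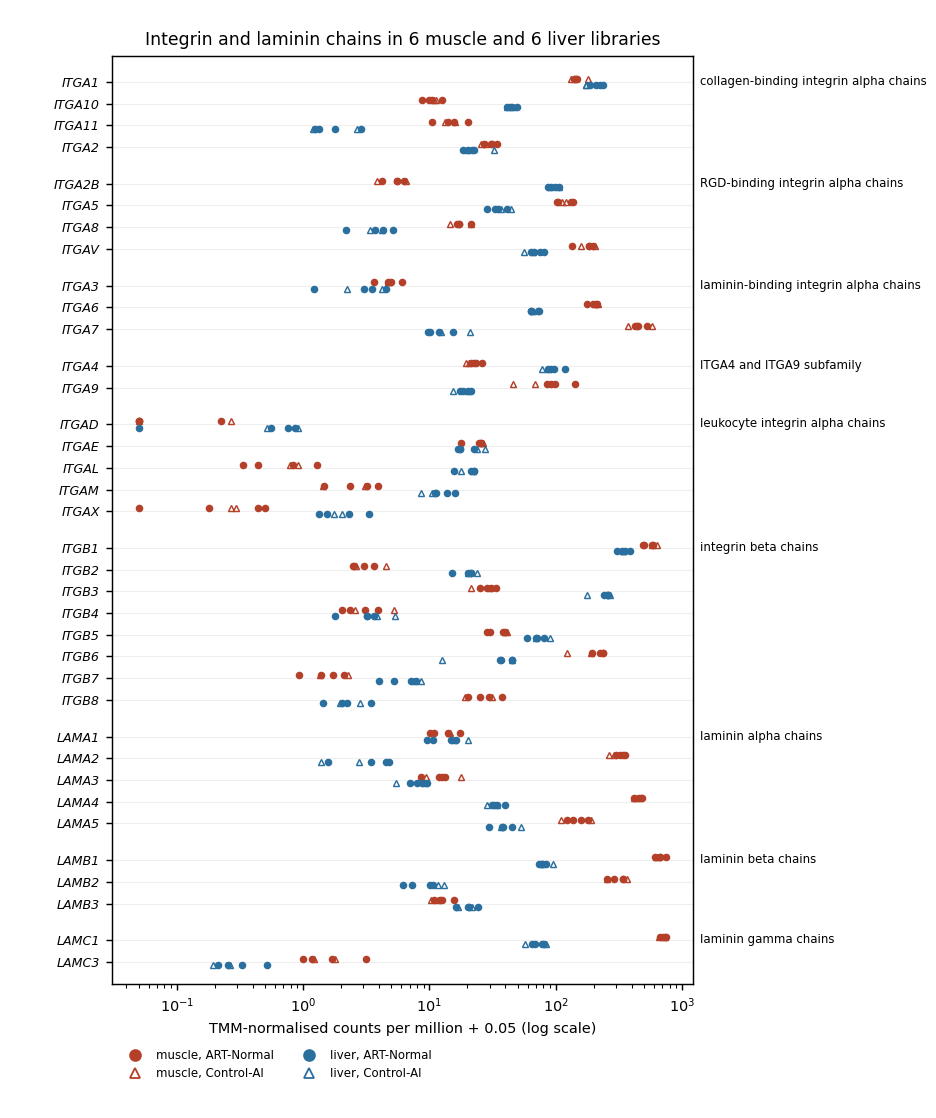
Level of the chains in each library, grouped by family (vertical axis), in TMM-normalised CPM plus 0.05 on a log scale (horizontal axis). Red marks muscle and blue liver, filled circles are ART-Normal and open triangles Control-AI. LAMC1, LAMB1 and ITGB1 have the highest muscle levels, and the blue points of ITGAL, ITGA2B and ITGB3 lie far to the right of the red ones.

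The first comparison asked which chains each tissue expressed. Muscle was tested against liver over the 12 libraries with conception group as a term. The fit had no term for the fetus, so its SE and p do not use the pairing of the tissues. A mean of at least 1 CPM was reached by 35 members and not by LAMC3 and ITGAD. Of the 35, 18 were higher in muscle and 13 were higher in liver at an adjusted p of 0.05 or lower, and 4 did not pass (ITGA3, ITGAE, LAMA1 and ITGB4). Over all 14742 genes tested the shares called were 40.2% higher in muscle and 39.6% higher in liver, so a call between these tissues was common. The 6 muscle libraries lay entirely above the 6 liver libraries for 16 members and entirely below for 12; for all genes these shares were 31.6% and 30.8%. The median absolute log2 fold change was 2.20 over the members and 0.971 over all genes tested. In bulk tissue, fewer cells of a type and less RNA per cell cannot be told apart, here or in the comparisons that follow.

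**Figure D2:**
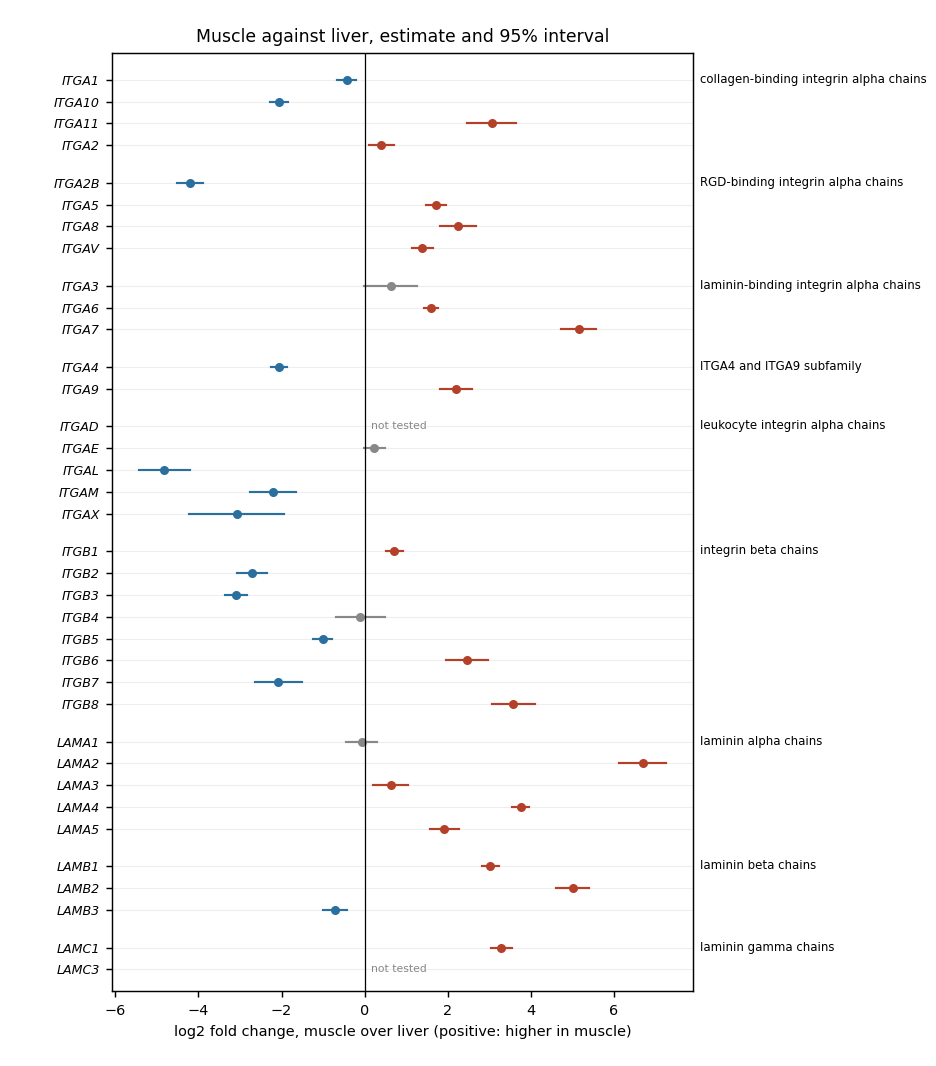
Log2 fold change of muscle over liver for the tested chains, by family. Points are estimates, bars 95% intervals, red is higher in muscle, blue higher in liver and grey not past the threshold. LAMA2 at 6.69 and ITGAL at -4.82 mark the ends of the range.

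Laminin chains were mostly higher in muscle. Of 10 tested, 7 were higher in muscle (LAMA2, LAMA3, LAMA4, LAMA5, LAMB1, LAMB2 and LAMC1), LAMB3 was among those higher in liver and LAMA1 did not pass. LAMA2 (chr9:66989322-67689094 on ARS-UCD1.2, plus strand), the alpha chain of the main laminin around adult muscle fibres, had a lowest, median and highest level of 264, 310 and 351 CPM in muscle. In liver these were 1.33, 3.06 and 4.74 CPM. The tissues did not overlap, and muscle exceeded liver by 6.69 on the log2 scale (SE 0.26, adjusted p = 2.7e-11, edgeR's quasi-likelihood test), about 103-fold.

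LAMB2 (chr22:50883580-50897890, plus strand), a beta chain found at the neuromuscular junction and in the glomerulus, had levels of 256, 316 and 367 CPM in muscle and 6.09, 10.3 and 13.1 CPM in liver. The log2 fold change was 5.01 (SE 0.18, adjusted p = 1.5e-11). LAMA4 (chr9:38176082-38331079, plus strand), the alpha chain of vessel and fibre laminins, had levels of 416, 449 and 485 CPM in muscle and 28.5, 33.3 and 39.4 CPM in liver, with a log2 fold change of 3.76 (SE 0.09, adjusted p = 6.0e-13). LAMC1 (chr16:64062643-64183739, plus strand), the gamma chain shared by most laminins, had levels of 652, 715 and 751 CPM in muscle and 57.1, 73.6 and 83.6 CPM in liver, with a log2 fold change of 3.29 (SE 0.11, adjusted p = 8.4e-12). For each of these 3 chains the libraries of the tissues did not overlap, and all 6 fetuses had more in muscle.

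LAMB1, the beta chain that most often joins LAMC1, was also higher in muscle, at 659 CPM ± 48.8 (SD, n = 6) against 81.2 ± 7.63 in liver (log2 fold change 3.03). LAMA5, the broadly expressed alpha chain, stood at 150 ± 31.6 against 40.1 ± 7.96 CPM (1.91). LAMA3, an alpha chain of epithelial basement membranes, differed least among those called, at 12.3 ± 3.29 against 7.98 ± 1.55 CPM (0.62), and its libraries overlapped between tissues. LAMA1, typical of early embryos, was at 13.5 ± 2.69 in muscle and 14.5 ± 3.89 in liver, with a 95% interval of the log2 difference from -0.46 to 0.30.

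LAMB3, a beta chain of epithelial basement membranes, was higher in liver. It stood at 12.2 ± 1.88 CPM in muscle and 20.0 ± 2.98 in liver (-0.71). LAMC3 was too low to test, with 16 to 71 counts in a muscle library and 2 to 21 in a liver library, and the muscle level was the higher in 6 of 6 fetuses.

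Among the laminin-binding integrin alpha chains, ITGA7 and ITGA6 were higher in muscle and ITGA3 did not pass. ITGA7 (chr5:57548742-57572025, plus strand), the laminin receptor of muscle fibres, had levels of 373, 445 and 580 CPM in muscle and 9.74, 12.1 and 20.8 CPM in liver. The libraries did not overlap, and the log2 fold change was 5.15 (SE 0.20, adjusted p = 2.1e-11), about 35.5-fold. The highest value of ITGA7 in each tissue was that of Control-AI 2. ITGA6, which is widely expressed on epithelia, vessels and stem cells, stood at 203 ± 15.3 CPM in muscle and 67.2 ± 4.43 in liver (log2 fold change 1.60). ITGA3 was low in both tissues, at 4.76 ± 0.78 and 3.08 ± 1.25 CPM (SD, n = 6), with an adjusted p of 0.066. With the fetus as a replicate block its adjusted p was 0.047.

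The collagen-binding chains split between the tissues. ITGA11, a receptor of fibroblasts and mesenchyme, was higher in muscle at 14.9 ± 3.28 against 1.80 ± 0.74 CPM (log2 fold change 3.06). ITGA10, best known from cartilage, was higher in liver at 44.2 ± 3.23 against 10.6 ± 1.31 CPM (-2.06). ITGA1, carried by mesenchymal and vascular cells, was the most abundant of the 4 in reads and stood at 148 ± 17.0 CPM in muscle and 201 ± 26.5 in liver (-0.44), with overlapping libraries. ITGA2, a receptor of platelets and epithelium, stood at 29.5 ± 3.23 and 22.5 ± 4.97 CPM (0.40, adjusted p = 0.014). Its call was lost without ART-Normal 2, 3 or 4, and in Control-AI 2 the liver level was the higher.

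Chains that recognise the RGD motif of fibronectin and vitronectin were led by the platelet chain in liver. ITGA2B (chr19:44172210-44185610, minus strand), which pairs with ITGB3 on megakaryocytes and platelets, had levels of 3.83, 5.47 and 6.49 CPM in muscle and 86.3, 95.6 and 107 CPM in liver. The libraries did not overlap, and the log2 fold change was -4.20 (SE 0.14, adjusted p = 6.5e-12). The other 3 were higher in muscle: ITGA8, a mesenchymal receptor, by 2.25, ITGA5, the fibronectin receptor, by 1.71 and ITGAV, the vitronectin receptor, by 1.38 on the log2 scale. ITGAV stood at 177 ± 26.2 CPM in muscle and 68.1 ± 8.68 in liver, and ITGA5 at 118 ± 14.1 and 36.3 ± 5.70 CPM.

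ITGA4 and ITGA9 are related chains that share VCAM1 and other ligands, and they lay on opposite sides. ITGA4, carried by leukocytes and blood progenitors, was higher in liver at 93.2 ± 14.0 against 22.3 ± 2.41 CPM (log2 fold change -2.06). ITGA9 was higher in muscle at 88.7 ± 32.1 against 18.8 ± 2.20 CPM (2.20).

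Leukocyte alpha chains were higher in liver in 3 of the 4 tested (ITGAL, ITGAM and ITGAX). ITGAL (chr25:26654119-26703130, plus strand), the alpha chain of the lymphocyte adhesion receptor for ICAM1, had levels of 0.283, 0.764 and 1.25 CPM in muscle and 15.8, 21.8 and 22.7 CPM in liver. The libraries did not overlap, and the log2 fold change was -4.82 (SE 0.29, adjusted p = 2.0e-09). ITGAX (chr25:27398392-27419163, plus strand), a chain of dendritic cells and macrophages, had levels of 0, 0.233 and 0.450 CPM in muscle and 1.28, 1.85 and 3.30 CPM in liver, with a log2 fold change of -3.08 (SE 0.53, adjusted p = 1.1e-04). At most 9 counts stood behind a muscle value of ITGAX, and without ART-Normal 2 it fell under the filter on low levels. ITGAM, of granulocytes and macrophages, stood at 11.8 ± 2.62 CPM in liver and 2.53 ± 1.01 in muscle (-2.21). ITGAE, of lymphocytes within epithelium, did not follow the others, at 24.3 ± 3.29 CPM in muscle and 21.0 ± 4.34 in liver (adjusted p = 0.088). ITGAD had 0 counts in 4 muscle libraries, at most 4 in the other muscle libraries, and 0 to 37 in liver. ITGAM, ITGAX and ITGAD are neighbouring copies on chromosome 25, so reads may be split among them.

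The beta chains, which set the partners of the alpha chains, included 3 that were higher in muscle (ITGB1, ITGB6 and ITGB8), 4 that were higher in liver (ITGB2, ITGB3, ITGB5 and ITGB7) and ITGB4, which did not pass. ITGB8 (chr4:29024090-29120852, plus strand), a partner of ITGAV that binds latent TGF-beta, had levels of 19.2, 27.4 and 37.3 CPM in muscle and 1.38, 2.09 and 3.41 CPM in liver, with a log2 fold change of 3.58 (SE 0.24, adjusted p = 6.8e-09). ITGB3 (chr19:46330531-46393474, plus strand), the partner of ITGA2B and ITGAV, had levels of 21.2, 29.3 and 33.8 CPM in muscle and 177, 257 and 267 CPM in liver, with a log2 fold change of -3.10 (SE 0.12, adjusted p = 3.1e-11). ITGB2 (chr1:144759539-144788839, minus strand), the beta chain of ITGAL, ITGAM and ITGAX, had levels of 2.46, 2.79 and 4.45 CPM in muscle and 15.1, 20.8 and 24.0 CPM in liver, with a log2 fold change of -2.72 (SE 0.17, adjusted p = 3.1e-09). None of these 3 overlapped between tissues. The lowest ITGB3 value of each tissue was that of Control-AI 2.

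ITGB1, the common partner of laminin and collagen receptors, differed by less than most chains, at 562 ± 56.5 CPM in muscle and 344 ± 27.1 in liver (log2 fold change 0.71). ITGB6, an ITGAV partner of epithelia, stood at 201 ± 42.9 CPM in muscle and 36.7 ± 12.6 in liver (2.45). ITGB5 was higher in liver by 2.02-fold, and ITGB7, a leukocyte chain, stood at 6.67 ± 1.77 CPM in liver and 1.57 ± 0.50 in muscle. ITGB4, the hemidesmosome chain, was at 3.16 ± 1.19 and 3.45 ± 1.15 CPM.

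Marker sums of other cells are set beside these groups, and not every list went the way of the chains. In muscle and liver respectively, the summed level over the 12 libraries ran from 41.7 to 64.8 and from 268 to 341 CPM for 10 leukocyte markers, from 112 to 151 and from 598 to 820 CPM for 10 macrophage markers, and from 3.90 to 6.85 and from 712 to 1005 CPM for 9 megakaryocyte and platelet markers. The defining marker GP1BA of the last list was at 0 in both Control-AI muscle libraries. For 10 connective tissue markers the ranges were 24197 to 31720 CPM in muscle and 913 to 1566 in liver. Of these, 9 were called higher in muscle and 1 higher in liver. For 9 epithelial markers the ranges were 179 to 255 CPM in muscle and 233 to 368 in liver, and they overlapped. Of these, 2 were called higher in muscle, 6 higher in liver and 1 was not called. Without osteopontin (SPP1), which was higher in muscle, the other 8 ran from 26.3 to 37.1 and from 221 to 350 CPM. ITGB6 and LAMA3, chains of epithelia, were higher in muscle, and LAMB3 was higher in liver. Endothelial markers ran from 825 to 954 CPM in muscle and from 543 to 605 in liver. Smooth muscle and pericyte markers ran from 954 to 1240 and from 197 to 333 CPM. Erythroid markers ran from 92.1 to 653 and from 7226 to 25650 CPM. The sums of 8 Schwann cell and nerve markers overlapped between the tissues, at 279 to 459 and 312 to 358 CPM. Of the 7 tested, however, 6 were called higher in muscle and 1 higher in liver. The part of cell composition in the differences between tissues was not tested.

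Levels of different genes were compared per kilobase of the listed gene span, which includes introns, since no exon lengths were at hand; the order within a family depends on this. Per kilobase of span, the leading chains in muscle were ITGA1 (0.813 CPM), ITGA7 (20.1), ITGA5 (5.62), ITGA9 (0.245), ITGAE (0.383), ITGB1 (12.8), LAMA5 (2.90), LAMB2 (21.6) and LAMC1 (5.82), each in its own group of chains. In liver they were ITGA10 (2.60), ITGA6 (0.765), ITGA2B (7.23), ITGA4 (1.02), ITGAL (0.415), ITGB1 (7.85), LAMA5 (0.777), LAMB1 (1.06) and LAMC1 (0.598). LAMA5 and LAMA4 (2.90 each in muscle) and ITGA9 and ITGA4 (0.245 and 0.243) were nearly equal per span and cannot be ordered by it. Some orders differed in CPM without division by span. In muscle, LAMA4 (449 CPM) and LAMA2 (311) exceeded LAMA5 (150), LAMB1 (659) exceeded LAMB2 (309) and ITGA9 (88.7) exceeded ITGA4 (22.3). In liver, ITGA1 (201 CPM) exceeded ITGA10 (44.2). Which chain leads by transcript number was therefore not settled.

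A total of 4 members shared part of their span with a gene on the other strand, and the library kit marked strand while the use of strand in counting is not given in the sources used here. The overlaps were ITGA2 with MOCS2, ITGA7 with METTL7B, ITGAE with HASPIN and ITGB8 with MACC1, which covers 85335 bases of ITGB8. MACC1 was at 15.1 CPM in Control-AI 2 muscle, and this value is part of the mean of 3.32 CPM over the 6 muscle libraries. ITGA1 shared its span with PELO on its own strand, which had 0 counts, and the other 32 members overlapped no listed gene.

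The second comparison asked whether conception by ART went with a different level of these chains, ART-Normal against Control-AI. In muscle, 26 members had at least 5 CPM in every library of a group and were tested. The other 11 were not, among them ITGA2B, ITGA3, ITGAD, ITGAL, ITGAM, ITGAX, ITGB2, ITGB4, ITGB7 and LAMC3. None passed the adjusted threshold in edgeR's quasi-likelihood test, against 1 of 11695 genes in all (0.00855%; ANKRD1, a muscle stress gene named after its value was seen). At an unadjusted p under 0.05 there were 2 members, ITGA9 and ITGB6, where the share over all genes was 9.19%. The likelihood ratio test of edgeR and the Wald test of DESeq2 each called 1 member, ITGA9. The 4 ART-Normal libraries did not overlap the 2 controls for 5 of 26 members, above them for ITGA4, ITGA9, ITGB6 and LAMA2 and below for ITGAE, where the share over all genes was 15.5%. The median absolute log2 fold change was 0.137 over the members and 0.141 over all genes.

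ITGA9 (chr22:10908405-11270100, plus strand), a receptor for tenascin C, VCAM1 and osteopontin, was at 45.6 and 69.0 CPM in Control-AI 2 and 4. In ART-Normal 1 to 4 it was at 91.7, 85.2, 141 and 99.0 CPM. All 4 ART-Normal libraries lay above both controls, ART-Normal 3 was the highest and Control-AI 2 the lowest. The log2 fold change was 0.85 (SE 0.22, 95% interval 0.35 to 1.34, unadjusted p = 0.0033), and it did not pass adjustment (adjusted p = 0.32). The adjusted p was 0.042 in the likelihood ratio test and 0.034 in the DESeq2 Wald test, and it ran from 0.0055 to 0.97 over all alternatives. Without Control-AI 2 the log2 fold change was 0.58 (adjusted p = 0.97) and without Control-AI 4 it was 1.17 (adjusted p = 0.0055), each with 1 control that was assumed to vary like the ART-Normal libraries.

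ITGB6 (chr2:36097360-36248576, plus strand) was at 124 and 192 CPM in Control-AI 2 and 4 of muscle, and at 194, 237, 223 and 237 CPM in ART-Normal 1 to 4. The groups did not overlap, but Control-AI 4 and ART-Normal 1 lay side by side. The log2 fold change was 0.48 (SE 0.18, 95% interval 0.09 to 0.87, adjusted p = 0.45). It rested on Control-AI 2: without it the value was 0.20 (adjusted p = 0.97), and without Control-AI 4 it was 0.82 (adjusted p = 0.0092).

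LAMA2 in muscle was at 287 and 264 CPM in the controls and at 351, 299, 342 and 321 CPM in ART-Normal 1 to 4. All ART-Normal libraries were above both controls, by 0.23 on the log2 scale (SE 0.14, 95% interval -0.07 to 0.54, adjusted p = 0.66). ITGA4 (chr2:15083580-15175364, minus strand) was at 19.5 and 20.7 CPM in the controls and at 22.7, 23.5, 26.2 and 21.1 CPM in ART-Normal, a log2 fold change of 0.20 (SE 0.16, 95% interval -0.14 to 0.54, adjusted p = 0.75) with no overlap. ITGB5 (chr1:69196890-69312146, minus strand), an ITGAV partner, was at 39.9 and 41.0 CPM in the controls and at 30.2, 28.6, 38.5 and 40.0 CPM in ART-Normal. Its groups overlapped, and the log2 fold change was -0.26 (SE 0.17, 95% interval -0.63 to 0.12, adjusted p = 0.71).

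The most abundant muscle chains were among those that did not pass, and their 95% intervals bound the change. The log2 fold change was 0.03 for LAMC1 (-0.29 to 0.35), 0.06 for LAMB1 (-0.26 to 0.39), 0.08 for LAMA4 (-0.23 to 0.39) and -0.07 for ITGA7 (-0.50 to 0.36). For ITGB1 it was -0.18 (-0.52 to 0.15). In the same muscle libraries some marker sums did not overlap between the groups: connective tissue markers were at 24197 to 28542 CPM in ART-Normal and 29624 to 31720 in Control-AI, leukocyte markers at 41.7 to 48.9 and 55.2 to 64.8 CPM, and 9 megakaryocyte and platelet markers at 3.90 to 6.14 and 6.42 to 6.85 CPM. The sum of 9 epithelial markers also did not overlap, at 179 to 219 and 252 to 255 CPM. Without osteopontin (SPP1) the other 8 were at 26.9 to 36.1 and 26.3 to 37.1 CPM and overlapped. The sums of the other marker lists overlapped. Over all genes tested in muscle, 15.5% did not overlap between the groups. The part of these marker sums in the member values was not tested.

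**Figure D3:**
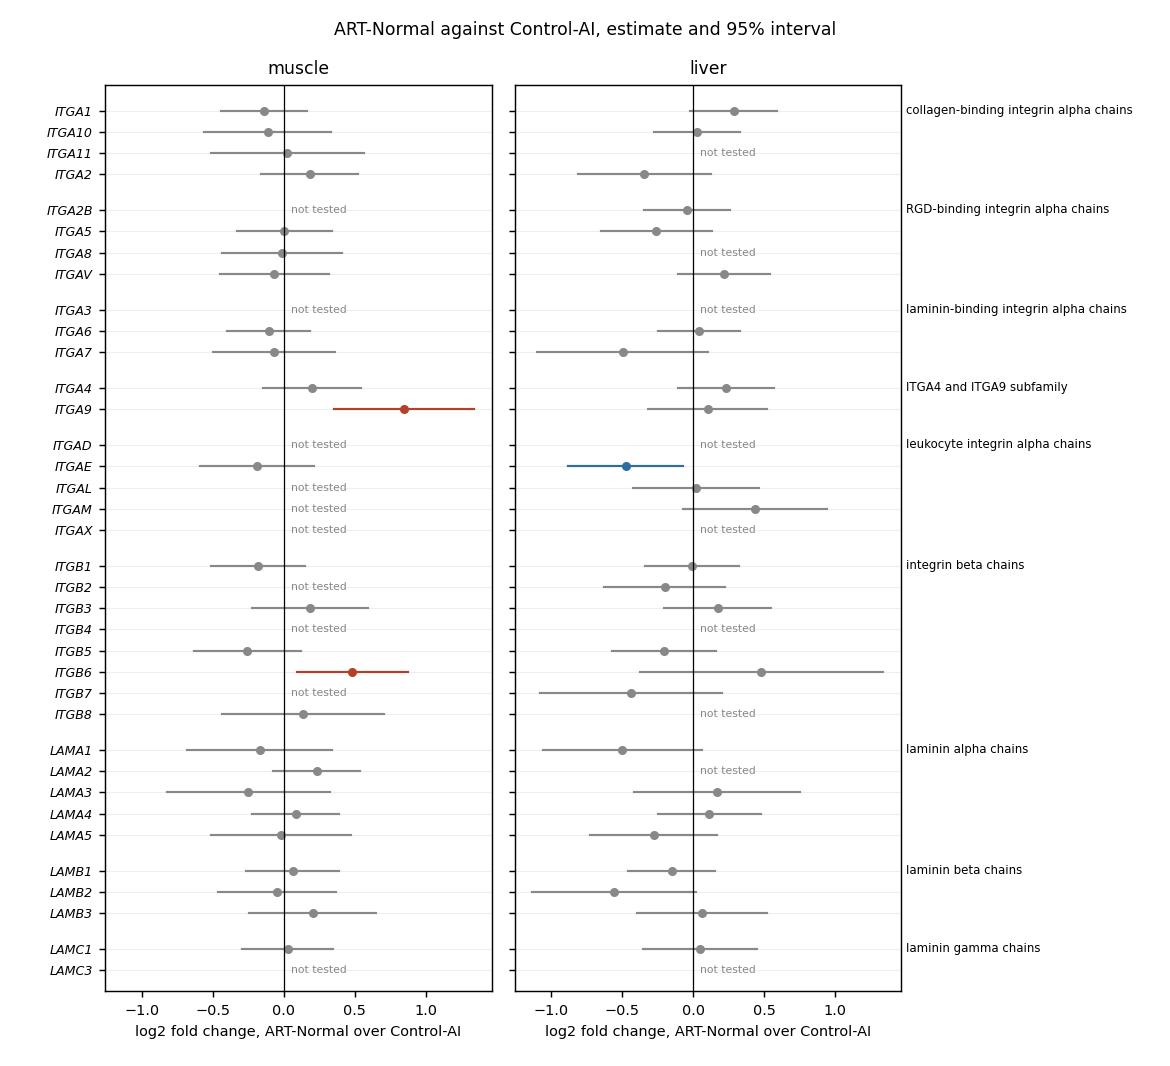
Change from Control-AI to ART-Normal (log2 scale, horizontal axis) in muscle (left) and liver (right) by chain (vertical axis). Points are estimates, bars 95% intervals, and coloured points have an unadjusted p under 0.05. ITGA9 and ITGB6 in muscle and ITGAE in liver are the coloured ones, and the adjusted p was above 0.05 for every chain drawn.

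In liver, 27 members were tested by the same rule and 10 were not, among them ITGA3, ITGA8, ITGA11, ITGAD, ITGAX, ITGB4, ITGB8, LAMA2 and LAMC3. None passed the adjusted threshold, as for all 11304 genes tested (0%); the likelihood ratio test and the DESeq2 Wald test also called 0 members. At an unadjusted p under 0.05 there was 1 member, ITGAE, where the share over all genes was 8.39%. The groups did not overlap for 4 members, above the controls for ITGA1 and ITGAM and below for ITGAE and LAMB2, where the share over all genes was 18.5%. The median absolute log2 fold change was 0.207 over the members and 0.167 over all genes. Some marker sums of the same liver libraries did not overlap between the groups: hepatocyte markers were at 36967 to 63396 CPM in ART-Normal and 70133 to 358134 in Control-AI, endothelial markers at 543 to 592 and 596 to 605 CPM, and Schwann cell and nerve markers at 335 to 358 and 312 to 314 CPM. The sums of the other marker lists overlapped. In edgeR's quasi-likelihood test, 5 of 10 hepatocyte, 0 of 10 endothelial and 1 of 2 tested Schwann cell and nerve markers had an unadjusted p under 0.05. The rest of the 8 Schwann cell and nerve markers were too low to test in liver. The part of these marker sums in the member values was not tested.

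ITGAE (chr19:24389249-24452858, minus strand) was at 27.5 and 23.7 CPM in the livers of Control-AI 2 and 4 and at 17.5, 16.8, 17.6 and 22.6 CPM in ART-Normal 1 to 4. The groups did not overlap, and ART-Normal 4 lay nearest the controls. The log2 fold change was -0.48 (SE 0.18, 95% interval -0.88 to -0.07, unadjusted p = 0.027, adjusted p = 0.56), and without Control-AI 2 it was -0.34. In muscle the controls were at 26.7 and 25.9 CPM and ART-Normal at 25.4, 25.8, 17.8 and 24.6 CPM, a log2 fold change of -0.19 (95% interval -0.59 to 0.22).

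LAMB2 in liver was at 13.1 and 11.7 CPM in the controls and at 6.09, 7.25, 10.6 and 10.0 CPM in ART-Normal 1 to 4. It did not overlap between groups, and the log2 fold change was -0.56 (SE 0.26, 95% interval -1.13 to 0.02, adjusted p = 0.59). LAMA1 (chr24:39951574-40077260, minus strand) was at 20.0 and 15.7 CPM in the controls and at 10.6, 16.2, 14.8 and 9.49 CPM in ART-Normal, with overlap. Its log2 fold change was -0.50 (SE 0.25, 95% interval -1.06 to 0.06, adjusted p = 0.59), and without Control-AI 2 it was -0.29.

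ITGA1 (chr20:26101731-26283399, minus strand) was at 172 and 175 CPM in the control livers and at 237, 223, 188 and 209 CPM in ART-Normal. All ART-Normal livers were above both controls, by 0.29 on the log2 scale (SE 0.14, 95% interval -0.02 to 0.59, adjusted p = 0.59). ITGAM (chr25:27344111-27381713, plus strand) was at 8.55 and 10.5 CPM in the controls and at 11.1, 13.7, 11.2 and 16.0 CPM in ART-Normal. These did not overlap either, with a log2 fold change of 0.43 (SE 0.23, 95% interval -0.07 to 0.94, adjusted p = 0.59).

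ITGB6 in liver differed mainly between the 2 controls. It was at 12.5 CPM in Control-AI 2 and 44.9 in Control-AI 4, and at 44.9, 36.6, 44.8 and 36.4 CPM in ART-Normal 1 to 4. Control-AI 4 lay within the ART-Normal range. The log2 fold change was 0.48 (95% interval -0.37 to 1.34, adjusted p = 0.67), 1.68 without Control-AI 4 (adjusted p = 0.0012) and -0.14 without Control-AI 2 (adjusted p = 1.0). It was chosen for this account after its values were seen. In Control-AI 2 the log2 ratio to the other 5 libraries was -1.70 for ITGB6 in liver and -1.09 for ITGA9 in muscle, and no other tested member was beyond 1 in either direction.

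**Figure D4:**
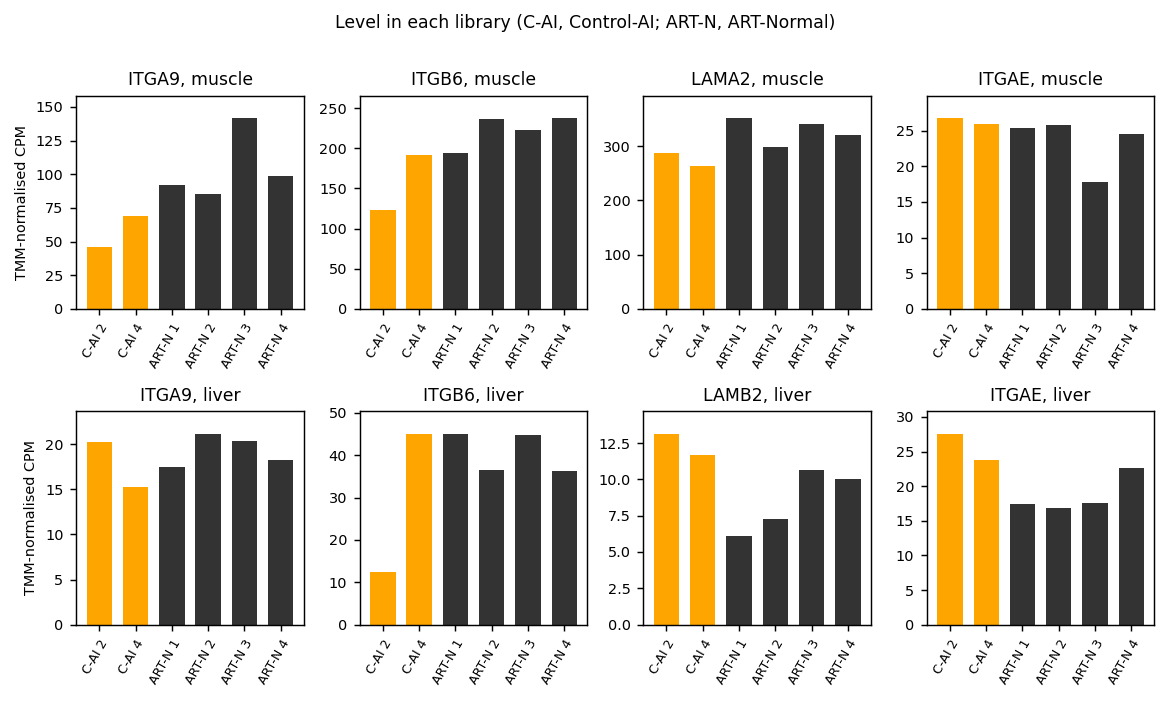
Level in each library of ITGA9, ITGB6, LAMA2 and ITGAE in muscle (top) and ITGA9, ITGB6, LAMB2 and ITGAE in liver (bottom), in TMM-normalised CPM from 0. Orange bars are the 2 Control-AI and dark bars the 4 ART-Normal fetuses, and each bar is 1 library. ITGA9 in muscle is lowest in Control-AI 2 (45.6 CPM), as is ITGB6 in both tissues (124 and 12.5 CPM).

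The third comparison asked whether the difference by conception was itself different between the tissues. Of 35 members tested for an interaction, none passed (0% of all 14742 genes), and 2 had an unadjusted p under 0.05, where the share over all genes was 5.64%. The interaction of ITGA9 was 0.74 on the log2 scale (SE 0.31, adjusted p = 0.87). It was 0.22 without Control-AI 2 (adjusted p = 0.99) and 1.25 without Control-AI 4 (adjusted p = 0.14). Its level in liver was 20.3 and 15.3 CPM in the controls and 17.4, 21.1, 20.4 and 18.3 CPM in ART-Normal, with overlap and a liver log2 fold change of 0.10. The interaction of ITGA1 was -0.43 (SE 0.19, adjusted p = 0.88), and leaving out Control-AI 2 gave -0.66 and leaving out Control-AI 4 gave -0.20 (adjusted p = 0.99 for each). In muscle ITGA1 was at 132 and 181 CPM in the controls and at 144, 142, 147 and 141 CPM in ART-Normal, a log2 fold change of -0.14, so the controls spanned all ART-Normal libraries. The DESeq2 Wald test called 0 members for the interaction as well.

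The genes that work with these chains were described from 3 further lists. For the counts between muscle and liver in all 3 lists, the shares over all genes tested were 40.2% higher in muscle and 39.6% higher in liver. Between muscle and liver, the basement membrane partners of laminin had 12 of 18 higher in muscle, 5 higher in liver and 1 not called, with a median log2 fold change of 1.51. The largest muscle excess was in COL15A1, a collagen of muscle and vessel basement membrane (312 ± 14.6 against 0.852 ± 0.30 CPM, log2 fold change 8.51), then NTN4, a laminin-like netrin (3.87), and SMOC2, a matricellular protein (3.25). The largest liver excess was in SMOC1 (167 ± 14.9 against 30.1 ± 4.52 CPM, -2.48), then the collagen IV chains COL4A3 (-1.74) and COL4A6 (-1.54).

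Of 15 listed non-laminin ligands, 13 were tested, with 6 higher in muscle, 6 higher in liver and fibronectin (FN1) not called; MADCAM1 and IBSP were too low to test. FBLN5 (5.52), tenascin C (TNC, 4.26) and osteopontin (SPP1, 3.78) led in muscle. Vitronectin (VTN), a plasma protein made by hepatocytes, was at 1860 ± 261 CPM in liver and 0.488 ± 0.88 in muscle (-12.3), followed by VCAM1 (-3.20) and E-cadherin (CDH1, -3.13).

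Of 26 cytoplasmic adaptors of integrins, 14 were higher in muscle, 8 higher in liver and 4 not called (ILK, PXN, ITGB1BP1 and ZYX). TLN2 (5.69), FLNC (3.78) and ITGB1BP2 (3.50), proteins of striated muscle attachment sites, led in muscle. FERMT3 (-4.27), the kindlin of blood cells, PARVG (-2.87), the parvin of blood cells, and PARVB (-2.40) led in liver. The paralogs TLN1 and FERMT2 differed by -1.33 and 1.66.

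**Figure D5:**
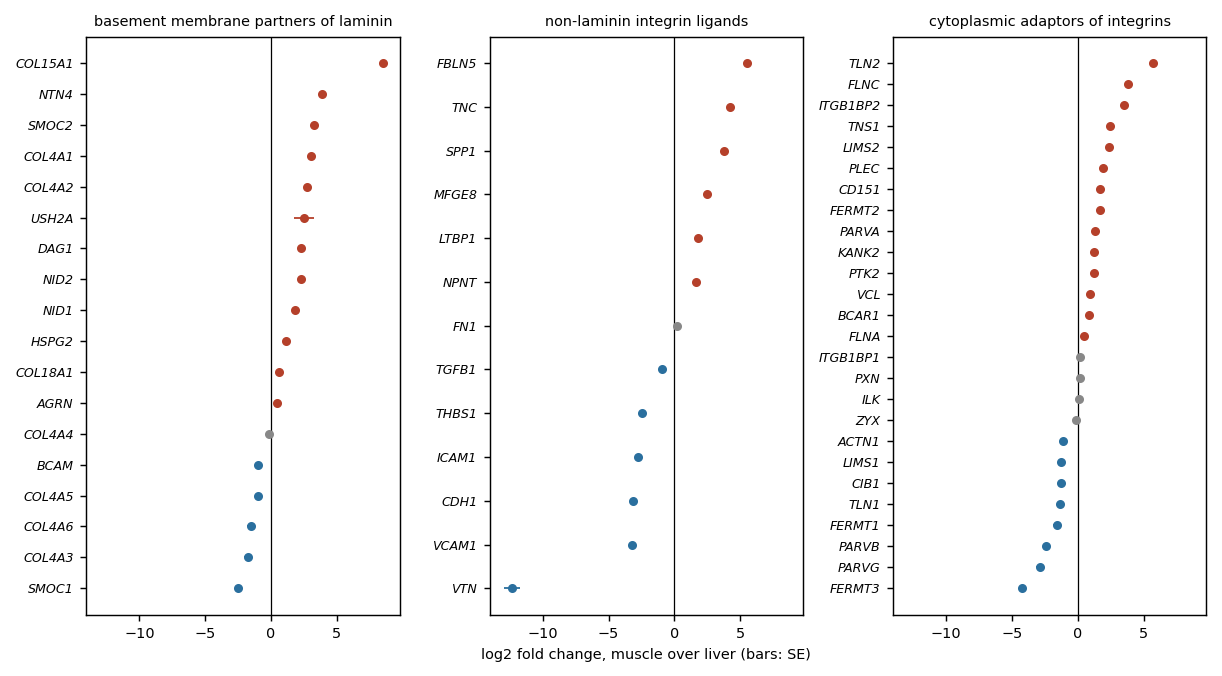
Log2 fold change of muscle over liver (horizontal axis) for genes of 3 partner lists (panels), with bars for the SE, red higher in muscle, blue higher in liver and grey not past the threshold. COL15A1 at 8.51 and VTN at -12.3 lie farthest from 0.

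Between ART-Normal and Control-AI, none of the genes on the 3 partner lists passed the adjusted threshold in either tissue. In muscle 0 of 15 basement membrane partners, 4 of 11 ligands and 4 of 23 adaptors had an unadjusted p under 0.05, where the share over all genes was 9.19%. In liver these were 1 of 13, 2 of 12 and 2 of 25, where the share was 8.39%. The 4 muscle ligands were MFGE8 (log2 fold change -0.71), TGFB1 (-0.91), SPP1 (-0.45) and FBLN5 (-0.32), with adjusted p from 0.28 to 0.49. MFGE8 and TGFB1 were also the 2 liver ligands, at -0.60 and -0.65 (adjusted p = 0.55 for both); the same 2 control fetuses enter both tissues.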

How the data were processed

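RNA-seq libraries of skeletal muscle and liver from 6 fetuses were used. Per the labels, poly(A) RNA was made into strand-specific libraries (dUTP) and sequenced as paired reads; the submitters' processing notes name FastQC 0.11.7, HISAT2 2.1.0, SAMtools, Cufflinks, featureCounts, edgeR 3.24.3 and the build ARS-UCD1.2. The authors deposited raw counts per gene, with no normalisation. Each tissue's table has 13 columns of counts; the fetal names in the labels identified 6, and the other 7 were not used. Deposited tables of the authors' comparisons (log2 fold change, log2 CPM, likelihood ratio, p-value and FDR) were not used. The tables list 9 gene identifiers on 2 lines each, which were kept. The listed length equalled end minus start plus 1 for all 21048 genes, so it is a gene span, and a length without introns could not be used as planned.

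Levels are CPM after TMM over 12 libraries. Tests used edgeR 4.0.16 in R 4.3.3 on the counts as deposited: the quasi-likelihood test, two-sided, with Benjamini-Hochberg adjustment over all genes tested, a threshold of 0.05, and TMM within the libraries of each fit. ART-Normal was compared with Control-AI within each tissue for genes that reached 5 CPM in every library of at least 1 group. Muscle against liver (conception group as a term) and the interaction had no fetus term and used genes with a mean of at least 1 CPM over the 12 libraries. Each SE is the size of the log2 fold change divided by the square root of F. Ratios of 1 library to others used CPM plus 0.5. DESeq2 1.42.0, the likelihood ratio test, other normalisations and filters, a replicate block and leaving out each library were alternatives. Figures were drawn with Matplotlib. The procedure was run on simulated data with 200 changed genes. The simulated libraries were independent, so this run did not cover paired tissues or a difference in most genes.

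Muscle and liver of 1 fetus are paired because they come from 1 animal; deviations from the group mean correlated between the tissues across genes at r of 0.489 in the controls (equal by construction with 2 controls) and 0.198, 0.0789, 0.114 and 0.262 in ART-Normal 1 to 4. No pair of libraries of a group differed by as little as sampling noise (chi-square per degree of freedom 17.2 to 367).

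The members and lists were chosen with earlier results of these data known. Named in full were, between tissues, up to 6 called members in each direction by fold change without overlap; within a tissue, the 5 members of smallest unadjusted p; for the interaction, 2; the leading chain of each group by level per span; and up to 3 partner genes in each direction. In all, 1 member of the family lists and 1 marker gene enter the counts and sums but are not reported here by name or drawn.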

Additional observations from a re-analysis of the deposited data

Results flagged for a closer look

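In 53 groups of 4 ART-Normal libraries (1 per tested member and tissue), the highest or lowest library was compared with the others by Dixon's criterion, which chance meets in about 1 in 20 groups; 3 groups met it. ITGA8 in muscle was at 21.3 CPM in ART-Normal 4 and at 16.4 to 17.1 CPM in the other 3; Control-AI 4 was at 21.1 CPM. ITGAE in muscle was at 17.8 CPM in ART-Normal 3 and at 24.6 to 25.8 CPM in the others. ITGAE in liver was at 22.6 CPM in ART-Normal 4 and at 16.8 to 17.6 CPM in the others.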

How the results depend on the processing

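The count of members called between ART-Normal and Control-AI in muscle was 0, and 1 (ITGA9) under the likelihood ratio test and under the DESeq2 Wald test, which called 120 and 106 of all genes where the quasi-likelihood test called 1. Leaving out 1 library gave 0 to 2 members in muscle and 0 to 1 in liver; the upper values came without Control-AI 4 (ITGA9 and ITGB6 in muscle, ITGB6 in liver), a fit with 1 control that called 1327 and 830 genes. ITGA9 in muscle had a log2 fold change of 0.85 in the likelihood ratio test, 0.84 in DESeq2 and 1.17 without Control-AI 4, and ITGB6 of 0.82 in the last. The cause of these changes was not tested. The interaction gave 0 members under its 12 alternatives, although over all genes DESeq2 called 32.

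Between muscle and liver, 17 to 20 members were higher in muscle and 11 to 14 higher in liver over 13 alternatives, including the 4 ART-Normal fetuses alone, which was added after seeing the data (19 and 13). The call of ITGA2 was lost without ART-Normal 2, 3 or 4, and ITGAX was not tested without ART-Normal 2 nor under the 5 CPM filter. With the fetus as a replicate block the counts were 19 and 13, and ITGA3 was the 1 call that changed. None of the log2 fold changes chosen for their size or p turned direction under these alternatives, but a choice by size or p itself favours a stable direction. ITGB6 in liver, chosen after its values were seen, was -0.14 without Control-AI 2. Over all tested members, leaving out Control-AI 2 turned the direction by conception for 6 of 26 in muscle and 9 of 27 in liver. Without Control-AI 4 it turned for 6 of 26 and 6 of 27.

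Within a tissue, equal replicate numbers of ART-Normal and Control-AI mark different animals (r of -0.0472 to 0.0280 between such libraries); blocking on them gave 0 members in each tissue and 90 and 6 genes over all. Scaling by library size alone moved the median log2 fold change of all genes by 0.209 in liver, 0.136 between tissues and -0.203 in the interaction, and ITGA3 and ITGAE then passed as higher in muscle. Levels per exon length were not run. Depth limited ITGAD, ITGAX and LAMC3, and 2 controls limited every test of conception.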
